A study of Mus musculus with 22 samples.

Results

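Myeloid cell-surface receptors of the Siglec, CD300, LILR, CD200 receptor and SIRP families were followed in RNA-seq of mouse spinal cord, as 10 of the 21995 genes measured. They are Cd33, Siglece, Siglec1, Cd300a, Cd300lb, Cd300lf, Lilrb4a, Cd200r1, Cd200r4 and Sirpa. They were taken by name and family, not by a threshold on their values, although they were proposed with earlier results of these data in view. Each library held one extruded spinal cord, so every value is an average over neurons, glia, vessels and blood cells.

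In the aging experiment, 8 young (3 to 4 months) and 8 old (18 to 24 months) wild-type male C57BL/6 mice were compared. In the experiment on amyotrophic lateral sclerosis (ALS), 3 mice with the label G93a were compared with 3 wild-type controls, all aged 5 to 6 months on a C57BL/6 background and of both sexes. The G93a mice, called SOD1-G93A below, bear a high-copy transgene of mutant human SOD1, a widely used model of inherited ALS in which spinal motor neurons degenerate. That transgene is active in most cell types and also leaves the mouse gene in place. The young and old libraries were made with the Roche RNA KAPA HyperPrep kit and the other libraries with Illumina TruSeq, so kit and experiment cannot be told apart and each experiment was tested on its own.

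These receptors sit on microglia and other myeloid cells and read the state of neighbouring cells. Siglecs bind sialic acid on glycoproteins and glycolipids. Several CD300 proteins bind lipids such as phosphatidylserine that dying cells expose. CD200R1 binds CD200, SIRPα binds CD47, and LILRB4 binds apolipoprotein E and fibronectin. An inhibitory receptor of this kind carries immunoreceptor tyrosine-based inhibitory motifs (ITIMs) in its tail, which recruit the phosphatases SHP-1 (gene Ptpn6), SHP-2 (Ptpn11) and SHIP-1 (Inpp5d) and damp signals from activating receptors. Not all members are inhibitory. Cd300lb and Cd200r4 encode activating relatives that pair with the adaptor DAP12 (gene Tyrobp), Siglec1 encodes the adhesion receptor sialoadhesin, which lacks an ITIM, and CD200R1 signals through Dok proteins without a classical ITIM. The members are therefore named as receptors of these families and not as a set of inhibitors.

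Their genes lie in family clusters (GRCm38, GENCODE M21). Cd300a (chr11:114890041-114904654), Cd300lb (chr11:114922781-114934386) and Cd300lf (chr11:115116214-115133992) bound a run of 8 other Cd300 genes on chromosome 11. Cd33 (chr7:43524216-43544428) and Siglece (chr7:43651070-43660161) are 107 kb apart on chromosome 7, and Cd200r1 (chr16:44765736-44794978) and Cd200r4 (chr16:44811733-44839150) are 16.8 kb apart on chromosome 16. Lilrb4a (chr10:51490956-51496611) lies within a longer gene model, Gm49339, on the same strand and shares exon sequence with it. Siglec1 (chr2:131069220-131086765) and Sirpa (chr2:129592835-129632228) are single genes on chromosome 2. Cd300lf lies inside Rab37 on the opposite strand without exon overlap.

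RefSeq promoter windows (GRCm38.p6, 250 bases before to 50 after the start of a gene) were at hand for 6 of the 10 members, Cd33, Siglece, Cd300a, Cd300lb, Cd300lf and Cd200r4. The bases upstream of 3 of them are printed because these genes differ in how they behaved: Siglece was not called in either experiment, Cd300lb was close to absent in young and control cords, and Cd300lf changed by different amounts in the 2 experiments. Capitals mark GAGGAA on either strand (TTCCTC on the opposite one), a form bound by the myeloid factor PU.1 that contains GGAA, the core of ETS factor sites. The shorter GGAA, which the Cd300lb sequence also holds, was not marked or counted.
Siglece, chr7:43660162-43660411, minus strand: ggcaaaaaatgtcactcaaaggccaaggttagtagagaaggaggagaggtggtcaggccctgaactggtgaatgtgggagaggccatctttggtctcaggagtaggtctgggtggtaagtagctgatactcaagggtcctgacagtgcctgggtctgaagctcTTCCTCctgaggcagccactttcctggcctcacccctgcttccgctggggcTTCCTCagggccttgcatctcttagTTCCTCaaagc
Cd300lb, chr11:114934372-114934621, minus strand: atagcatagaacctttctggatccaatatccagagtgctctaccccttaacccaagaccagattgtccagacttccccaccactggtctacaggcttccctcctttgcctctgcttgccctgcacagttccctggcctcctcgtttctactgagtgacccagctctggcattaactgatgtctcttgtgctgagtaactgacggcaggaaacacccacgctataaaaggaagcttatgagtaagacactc
Cd300lf, chr11:115133993-115134242, minus strand: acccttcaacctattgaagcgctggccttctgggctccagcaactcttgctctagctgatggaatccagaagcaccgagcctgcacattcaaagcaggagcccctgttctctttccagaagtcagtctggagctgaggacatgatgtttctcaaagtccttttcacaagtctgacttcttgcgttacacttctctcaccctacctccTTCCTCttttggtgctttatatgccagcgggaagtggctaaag

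GAGGAA was found on either strand in 4 of the 6 windows (Cd33, Siglece, Cd300a and Cd300lf), and in 28.3% of all 32851 windows of that length. The longer GAGGAAGT, which contains it, was found in 1 of the 6, in Cd300lf from the first base of the gene, and in 3.20% of all windows. TGANTCA, the AP-1 site, was found in none of the 6 windows and in 7.81% of all windows. Siglece held 3 copies of GAGGAA, and Cd300lb and Cd200r4 held none. In SOD1-G93A cords these genes without it rose by at least 4.45 and 4.29 on the log2 scale. Those with it differed by 1.14 (Siglece) to 3.41 (Cd300lf). In aging the lower bounds were 1.49 and 0.66, under the 2.02 of Cd300a. Whether the letters relate to the changes was not tested, and 6 windows are few. A match in letters is a description and no measure of binding.

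Libraries held 5078092 to 13219797 counts, with 9675610 or more in every control and SOD1-G93A library. Libraries are named a to h within a group in the order of the table's columns. Library old f stood apart from the other old libraries, since it was the lowest of the 8 in 7 of 10 members (ties counted) and its 10 most abundant genes took 15.1% of its counts. Library SOD1-G93A b was the lowest of its 3 in 10 of 10 members. Levels are given as CPM, the share of a library's counts after TMM scaling of library sizes. Mouse Sod1 was at 156 to 168 CPM in control and 296 to 335 CPM in SOD1-G93A libraries, a log2 fold change of 0.95 (adjusted p = 0.000241, edgeR), and whether reads of the human transgene were counted there was not tested. The 6 positional genes of the spinal cord summed to 178 to 301 CPM. Summed CPM of 8 microglial markers was 268 to 299 in young, 387 to 574 in old, 286 to 343 in control and 888 to 1368 in SOD1-G93A cords. The 9 T and NK cell markers summed to 0.549 to 2.03 CPM in young and 2.16 to 4.46 in old cords, and to 0.845 to 1.71 in control and 1.95 to 3.58 in SOD1-G93A cords, with no overlap in either comparison. Of these markers, 8 in young and 7 in control cords had 3 counts or fewer in every library, so single counts decide the sums. Among single genes with a count, 2.85% in aging and 22.4% in ALS were higher without overlap. The 7 neutrophil markers reached at most 2.54 and the 5 mast cell markers at most 0.816 in any library. The 5 astrocyte markers summed to 3722 to 4501 in control and 9341 to 15438 in SOD1-G93A cords, and the 3 Schwann cell markers to 98.6 to 117 and 131 to 304. The 8 markers of border macrophages summed to 1.84 to 7.73 in the other groups and to 8.46 to 18.5 in SOD1-G93A cords. Much of that rise was Ms4a7, with a mean of 0.0561 CPM in control and 7.33 in SOD1-G93A cords. Of 4 of these markers tested in ALS, Ms4a7 and Mrc1 were called higher, and Cd163 and F13a1 did not pass. Among all genes tested in ALS, 8.5% were called higher. The 6 monocyte markers summed to 34.0 to 49.9 in control and 53.6 to 82.6 in SOD1-G93A cords, with Plac8 at 3 counts or fewer in each of these libraries. Most of that sum was Vcan, with a mean of 41.5 CPM in control and 65.3 in SOD1-G93A cords. The part of these other cell types in the results was not tested. In bulk tissue, more cells of a type and more RNA per cell cannot be told apart.

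With age, 3 members rose past both thresholds of the study (log2 fold change beyond 1 and adjusted p under 0.05): Lilrb4a, Cd300a and Cd33. Sirpa rose by less than the fold threshold. Only 4 of the 10 members had enough counts to be tested, and Cd300a and Lilrb4a passed that filter through their counts in old cords, so the number called is no support by itself. Among all 13647 genes tested, 2.18% were called higher. Tests are edgeR quasi-likelihood tests with p-values adjusted by Benjamini and Hochberg across the whole table. After ±, levels carry the SD over libraries and fold changes an SE. That SE was derived from the test, as the absolute log2 fold change divided by the square root of its F statistic.

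Lilrb4a, the mouse counterpart of LILRB4 with ITIMs in its tail, had the largest change of the members tested. Its counts in young a to h were 5, 0, 0, 0, 2, 8, 0 and 0, and in old a to h 121, 180, 79, 132, 73, 11, 137 and 65. Every old library was above every young one, and old f was far below the other old libraries. The mean was 0.215 ± 0.345 CPM in young and 13.1 ± 6.06 CPM in old cords (n = 8 each), a log2 fold change of 5.70 ± 0.51 (adjusted p = 1.38e-08, edgeR).

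Cd33 encodes a Siglec whose human counterpart is a risk gene for Alzheimer's disease. Its CPM was 6.93, 8.29 and 9.72 at the lowest, median and highest of the 8 young libraries, and 13.5, 18.9 and 20.8 in old. The groups did not overlap, and the low old value was in library old b and not in old f. The log2 fold change was 1.19 ± 0.10 (adjusted p = 2.83e-09, edgeR).

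Cd300a encodes an ITIM receptor for phosphatidylserine. Its CPM ran from 0.452 through a median of 0.656 to 1.48 in young and from 1.61 through 3.51 to 4.22 in old cords. All old libraries lay above all young ones, though by little between young b and old c. The log2 fold change was 2.02 ± 0.27 (adjusted p = 5.44e-06, edgeR).

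Sirpa, which binds the "don't eat me" ligand CD47 and is made by neurons as well as by myeloid cells, was the most abundant member. Its CPM was 173, 178 and 188 at the lowest, median and highest young library and 188, 242 and 256 in old. Old f, the lowest old library, was barely above the highest young library. The log2 fold change was 0.38 ± 0.05 (adjusted p = 9.07e-06, edgeR), under the fold threshold.

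The other 6 members were below the count filter in the aging experiment. Without that filter, 8 of 10 members were called higher, those just named and Siglec1, Cd300lb, Cd300lf, Cd200r1 and Cd200r4 among them but neither Sirpa nor Siglece, against 2.73% of 18634 genes with a count. Of these, 4 had 3 counts or fewer in every young library, which is the floor used here, and their folds are given as lower bounds against the largest young floor.

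Cd300lb, an activating CD300 protein, had counts of 0, 1, 0, 0, 0, 0, 0 and 1 in young a to h and 15, 19, 10, 11, 15, 2, 11 and 13 in old a to h. Mean CPM in old cords was 1.64 ± 0.686, at least 2.81-fold higher than the floor. No old library was at 0, and old f was the only old library under the floor.

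Siglec1, the sialoadhesin gene of macrophages, had counts of 3, 1, 1, 0, 1, 0, 1 and 3 in young a to h and 23, 40, 10, 28, 24, 3, 19 and 13 in old a to h. It was at least 4.51-fold higher in old cords, with the groups not overlapping in CPM. Old f was again the lowest, with 3 counts, as many as young a and young h. It lay above them in CPM, 0.463 against 0.392 in young h, only through the scaling by library size.

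Cd200r1 and Cd200r4, neighbouring genes of which the first encodes the inhibitory CD200 receptor and the second an activating relative, were both rare. Cd200r1 had 0 to 2 counts in young libraries and 5, 7, 7, 5, 7, 0, 4 and 6 in old a to h. Cd200r4 had 0 or 1 in young libraries and 11, 8, 9, 7, 6, 0, 5 and 8 in old a to h. For both genes 7 of 8 old libraries lay above every young library and old f was at 0. They were at least 1.20-fold and 1.58-fold higher in old cords.

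Cd300lf, an ITIM receptor known in mice as the entry receptor of murine norovirus, had 2, 6 and 15 counts at the lowest, median and highest young library and 5, 14.5 and 25 in old. The groups overlapped, with 5 of 8 old libraries above every young one. The log2 fold change without the filter was 1.26 ± 0.34 (adjusted p = 0.00834, edgeR).

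Siglece, the main ITIM-bearing Siglec of mouse microglia and neutrophils, did not pass. Its counts were 1, 3.5 and 13 in young and 1, 6 and 15 in old libraries at the lowest, median and highest, and its log2 difference without the filter was 0.80 ± 0.45 (adjusted p = 0.238, edgeR). Only 2 of 8 old libraries exceeded the highest young library. A change was not detectable at this depth, at which 3 counts correspond to 0.320 to 0.582 CPM.

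Over all 10 members, the 8 old and 8 young libraries did not overlap in CPM for 6 (Cd33, Siglec1, Cd300a, Cd300lb, Lilrb4a and Sirpa), compared with 2.85% of the 18634 genes with a count. For Siglec1 the lowest old and the highest young library had the same 3 counts and were parted only by library size. For these 6 the two-sided exact permutation p was 0.000155, the smallest that 12870 arrangements can give. It was 0.0014 for Cd200r1 and Cd200r4, 0.00513 for Cd300lf and 0.12 for Siglece. Without old f, Cd200r1 and Cd200r4 did not overlap either, and their exact permutation p fell to 0.000155 as well. Old f was left out after its values were seen and was the only old library that overlapped. This outcome therefore follows from the choice and is no support. The number of members called with the filter rose from 3 to 5 without old f.

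**Figure D1:**
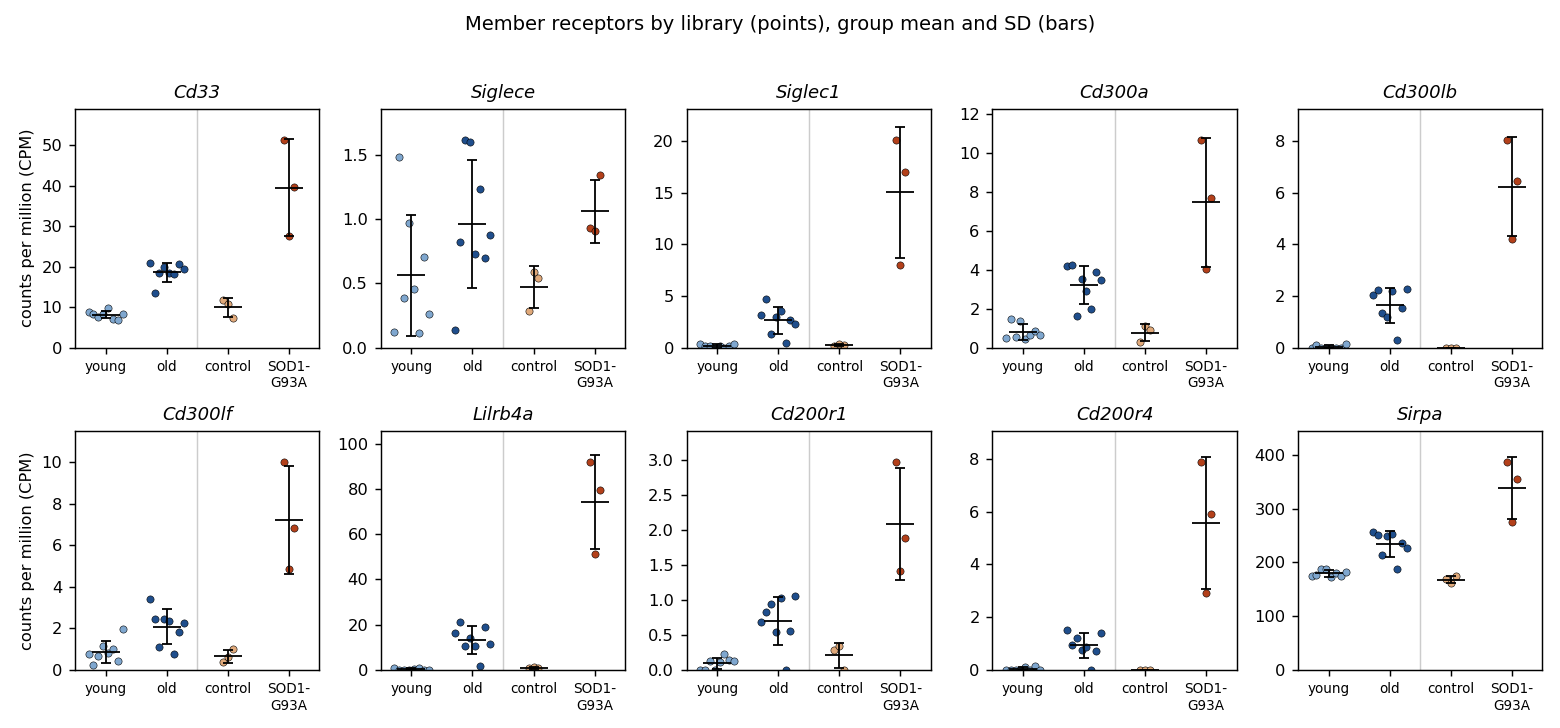
Level of each member in CPM (vertical axis, linear from 0, its own range per panel) in 8 young, 8 old, 3 control and 3 SOD1-G93A cords. Points are libraries and bars the group mean and SD. The SOD1-G93A libraries lie above every control library in all 10 panels, whereas old and young overlap for Siglece, Cd300lf, Cd200r1 and Cd200r4.

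In SOD1-G93A cords, 9 of the 10 members were called higher and none lower, with Siglece the exception. Among all 14386 genes tested, 8.5% were called higher and 1.2% lower. Cd300lb and Cd200r4 had no control count, and Siglec1, Cd200r1, Cd300lf, Cd300a, Siglece and Lilrb4a had few (7 to 14 for Lilrb4a). All of these passed the filter on low counts only with the SOD1-G93A libraries. The number called is therefore no support by itself, and with at least 10 counts required in every library 2 members were called. All 10 members had every SOD1-G93A library above every control library, which was also so for 22.4% of 18161 genes with a count. With 3 against 3 mice an exact permutation test cannot go below p = 0.1, so the tests below are those of the edgeR fit over all genes.

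Lilrb4a was the most changed member with a measurable control level. Its counts were 7, 14 and 8 in control a to c and 1086, 511 and 892 in SOD1-G93A a to c, or 0.819 ± 0.312 and 74.4 ± 20.8 CPM (n = 3 each). The log2 fold change was 6.49 ± 0.31 (adjusted p = 5.49e-05, edgeR).

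Siglec1 had 2, 4 and 3 counts in control and 237, 79 and 190 in SOD1-G93A libraries. The log2 fold change was 5.83 ± 0.48 (adjusted p = 0.000164, edgeR). SOD1-G93A b held fewer than the other SOD1-G93A libraries, as it did for each member.

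The pair of activating members had no count in any control library. Cd300lb had 95, 42 and 72 counts in SOD1-G93A a to c and Cd200r4 had 93, 29 and 66. They were at least 21.9-fold and 19.6-fold higher (adjusted p = 0.000376 and 0.000986, edgeR).

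The inhibitory members Cd300a, Cd300lf and Cd200r1 also rose. Cd300a had 3, 13 and 12 counts in control and 126, 40 and 86 in SOD1-G93A libraries, a log2 fold change of 3.24 ± 0.48 (adjusted p = 0.00184, edgeR). Cd300lf had 4, 7 and 13 against 118, 48 and 76, a log2 fold change of 3.41 ± 0.41 (adjusted p = 0.000657, edgeR). Cd200r1 had 3, 4 and 0 against 35, 14 and 21, a log2 fold change of 3.33 ± 0.66 (adjusted p = 0.00645, edgeR). Since the folds of Cd300lb and Cd200r4 are bounds against a floor, no test between members was made.

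Cd33 and Sirpa, the 2 members with the highest levels in control cords, changed least among those called. Cd33 had 125, 128 and 95 counts in control and 606, 274 and 445 in SOD1-G93A libraries, a log2 fold change of 2.0 ± 0.25 (adjusted p = 0.000786, edgeR). Sirpa had 161 to 174 CPM in control and 275 to 386 CPM in SOD1-G93A cords, a log2 fold change of 1.01 ± 0.13 (adjusted p = 0.000831, edgeR). Sirpa sat on the fold threshold, and its log2 fold change was 0.98 without control b, 0.92 without SOD1-G93A a, 0.99 without SOD1-G93A c and 0.99 in one fit of all 22 libraries.

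Siglece had 3, 7 and 7 counts in control and 11, 9 and 15 in SOD1-G93A libraries. The values did not overlap, but the log2 difference of 1.14 ± 0.44 did not pass the test (adjusted p = 0.0747, edgeR).

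**Figure D2:**
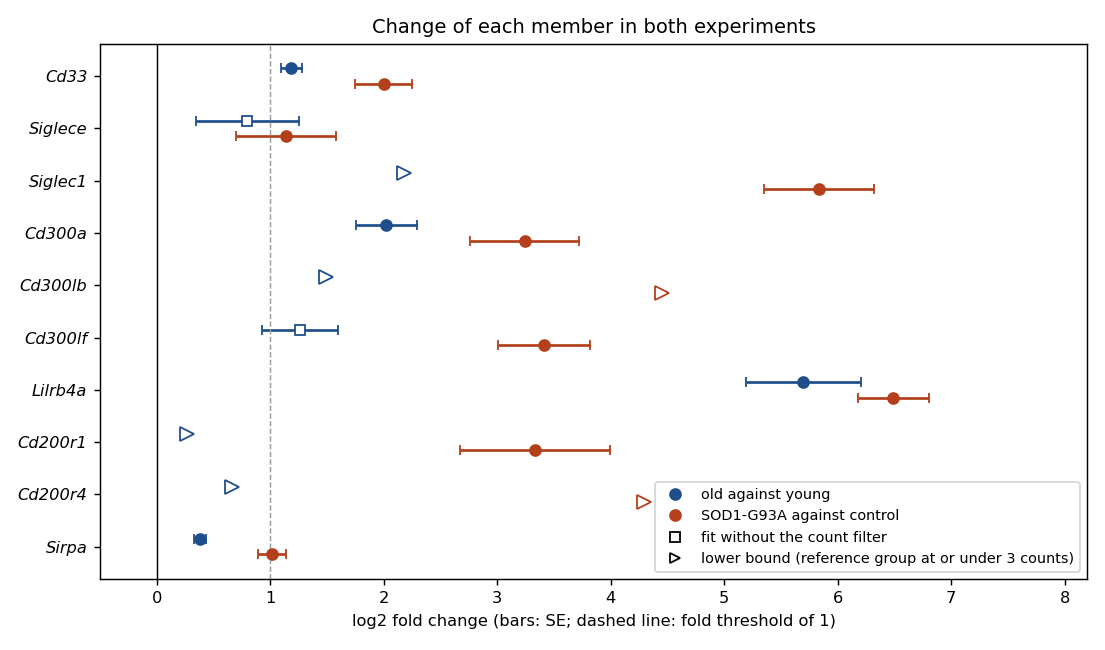
Log2 fold change of each member (horizontal axis) in old against young cords (blue) and in SOD1-G93A against control cords (red), with SE as bars. Squares come from the fit without the count filter and triangles are lower bounds against a group at or under 3 counts. Lilrb4a has the largest measured change in both experiments, 5.70 and 6.49, and Sirpa the smallest measured change, 0.38 and 1.01.

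The difference between the SOD1-G93A and the aging change was tested as an interaction in one fit of all 22 libraries, and was larger in SOD1-G93A for 3 of the 10 members. It was 2.10 ± 0.59 for Cd300lf (adjusted p = 0.00985), 0.78 ± 0.22 for Cd33 (adjusted p = 0.00994) and 0.60 ± 0.12 for Sirpa (adjusted p = 0.000554) on the log2 scale. Among all 14502 genes, 11.6% had such a difference in that direction. For Lilrb4a the difference was 0.74 ± 1.23 (adjusted p = 0.705), so this test could not tell the 2 changes apart. The Cd33 difference did not pass without control c (0.60, adjusted p = 0.0579) or without SOD1-G93A a (0.56, adjusted p = 0.0715). Kit, sex and age of the controls also differ between the experiments.

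The order of the members by transcript level was read from FPKM, which is scaled by transcript length. Sirpa was first in every group, with 55.2 ± 3.67 FPKM in young, 72.1 ± 6.04 in old, 45.3 ± 1.94 in control and 95.7 ± 15.9 in SOD1-G93A cords. Its share of the members' summed FPKM was 94.8% ± 0.961 in young, 80.7% ± 5.24 in old, 92.5% ± 1.66 in control and 60.1% ± 3.49 in SOD1-G93A cords. The remainder shifted towards Lilrb4a, which had 0.227% ± 0.398 of the sum in young, 9.29% ± 4.07 in old, 1.08% ± 0.432 in control and 25.4% ± 1.74 in SOD1-G93A cords.

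Cd33 was second in young (1.88 ± 0.40 FPKM) and control cords (2.13 ± 0.907). In old cords Lilrb4a (8.60 ± 4.35 FPKM) stood above Cd33 (4.48 ± 0.849), but their ranges overlapped through old f, where Lilrb4a was at 0.87. In SOD1-G93A cords Lilrb4a (41.2 ± 11.3 FPKM) and Cd33 (8.63 ± 2.35) did not overlap. Cd200r4, near 0 in young and at 0 in control cords, had rank 4 by median in SOD1-G93A cords (3.18 ± 1.41), with a range that overlapped those of Cd300lf, Cd300lb, Siglec1 and Cd300a. Siglece was last there, at 0.683 ± 0.188 FPKM.

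**Figure D3:**
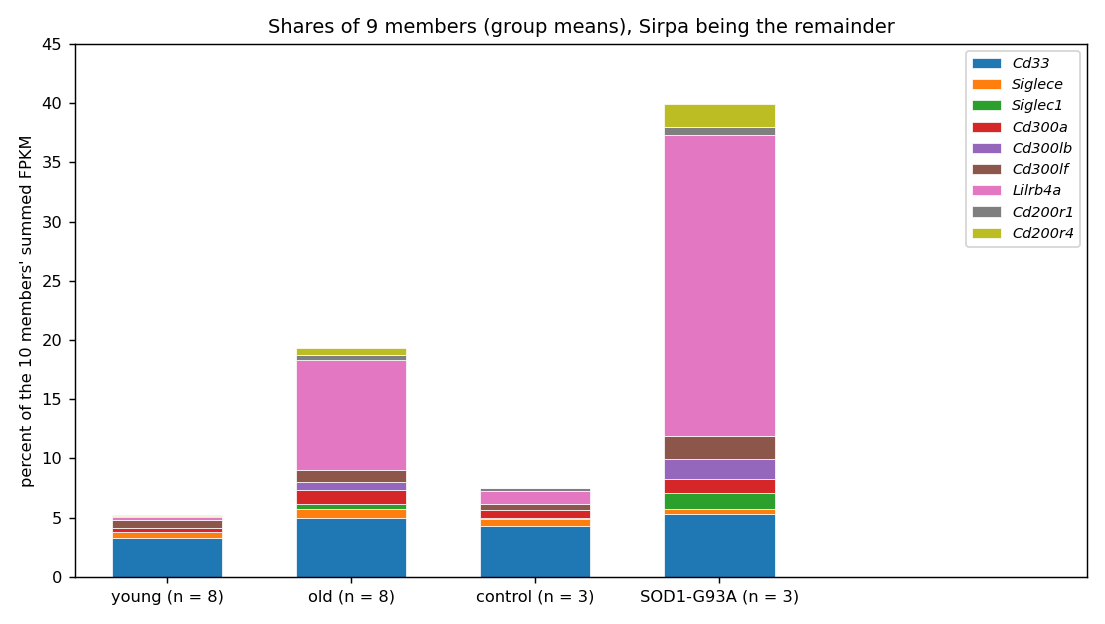
Share of 9 members in the summed FPKM of the 10 (vertical axis, percent, stacked from 0), as means over the libraries of each group, with Sirpa as the remainder to 100%. The Lilrb4a share (pink) is 9.29% in old and 25.4% in SOD1-G93A cords, and the Cd33 share lies between 3.25% and 5.32% in the 4 groups.

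Since myeloid transcripts as a whole were more abundant in old and SOD1-G93A cords, each member was also expressed relative to 6 genes common to myeloid cells: Csf1r, Itgam, Ptprc, Spi1, Irf8 and Aif1. The geometric mean of their CPM was 6.84 to 10.1 in young, 18.3 to 24.6 in 7 old libraries and 13.4 in old f, 8.43 to 9.92 in control and 40.7 to 66.0 in SOD1-G93A libraries. Ratios are given as CPM per 100 CPM of this reference, and the p-values are two-sided exact permutation tests over 10 members, not adjusted. A ratio shows unequal change and not change per cell.

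The ratios of Lilrb4a and Cd300lb were higher in old cords without overlap between the groups, as were those of 0.274% of the 18634 genes with a count. Lilrb4a went from 2.63 ± 4.39 in young to 59.4 ± 23.2 in old cords (n = 8 each, exact permutation p = 0.000155). Cd300lb went from 0.355 ± 0.659 to 7.59 ± 3.08 (exact permutation p = 0.000155). Its young libraries were under the floor of 3 counts, which corresponds to a ratio of up to 7.07, so the mean ratio in old cords was at least 1.07-fold higher.

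Measured ratios were also higher in old cords for Siglec1 (1.87 and 11.8, exact permutation p = 0.000466), Cd200r4 (0.398 and 4.30, exact permutation p = 0.00171) and Cd200r1 (1.14 and 3.26, exact permutation p = 0.0143). The young libraries of all 3 were at or under the floor. Against it the Siglec1 ratio was at least 1.67-fold higher, whereas the old means of Cd200r4 and Cd200r1 lay under it, so no rise past the reference can be shown for them at this depth. For these genes old f was the lowest old library, and without it every old library of Siglec1 and Cd200r4 was above every young one. That follows from leaving out the only old library that overlapped and is no support. Cd300a rose from 9.88 to 15.3 with overlapping groups (exact permutation p = 0.0278).

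For Cd33, Cd300lf and Siglece no difference from the reference was detected in aging. Cd33 was at 97.9 ± 5.01 in young and 92.0 ± 23.3 in old cords (exact permutation p = 0.515), and at 85.8 without old f (exact permutation p = 0.0519). Cd300lf was at 10.3 ± 6.08 and 9.59 ± 3.16 (exact permutation p = 0.776), and Siglece at 6.83 ± 5.77 and 4.91 ± 3.02 (exact permutation p = 0.43). Sirpa fell from 2172 ± 244 to 1131 ± 134 without overlap, which 58.8% of genes with a count also did.

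In the ALS experiment the ratios of 4 members lay above every control library, against 1.33% of 18161 genes with a count. Lilrb4a went from 6.70 to 13.1 in the 3 control libraries to 126 to 139 in the 3 SOD1-G93A libraries. Siglec1 went from 1.91 to 3.74 to a range of 19.5 to 30.4, Cd300lb from 0 to 10.4 to 12.2, and Cd200r4 from 0 to 7.18 to 11.9. These 4 ratios were higher than in any control library in each SOD1-G93A mouse, including library b, where the reference itself was lowest.

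The ratios of Cd33, Siglece and Sirpa lay below every control library in the SOD1-G93A mice, as did those of 81.0% of genes with a count. Cd33 was at 86.6 to 119.7 in control and 66.1 to 77.8 in SOD1-G93A libraries. The ratios of Cd300a, Cd300lf and Cd200r1 overlapped between the groups. The direction for Cd33 depended on the reference: against 8 homeostatic microglial genes, among them P2ry12 and Sall1, whose own changes did not pass the test in either experiment, the fitted Cd33 log2 difference was 0.44 in aging and 0.39 in SOD1-G93A cords, in place of -0.10 and -0.62.

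**Figure D4:**
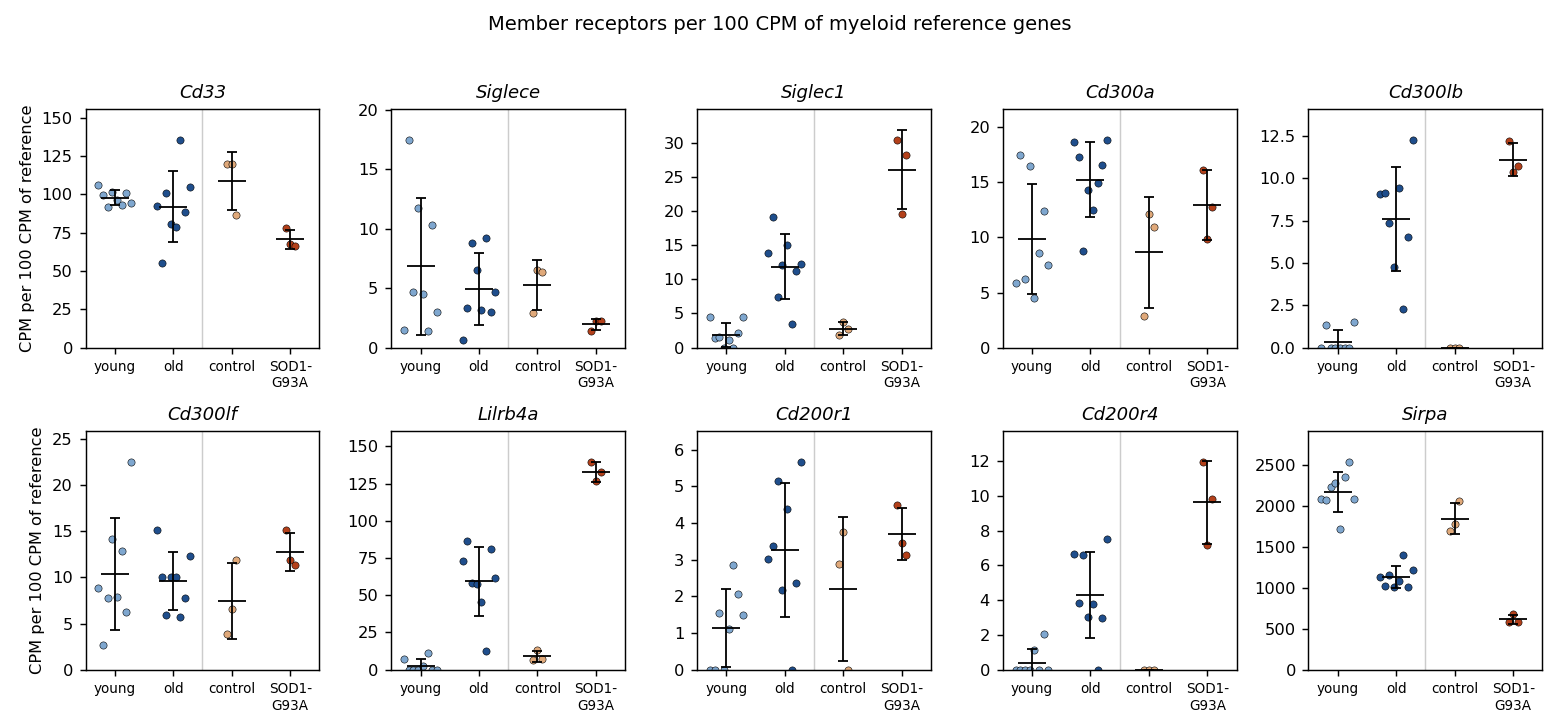
Each member as CPM per 100 CPM of 6 myeloid reference genes (vertical axis, linear from 0), by library (points) with the group mean and SD (bars). Lilrb4a reaches 126 to 139 in the SOD1-G93A libraries, while Cd33 lies at similar ratios in young and old cords.

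The Lilrb4a values depend on how reads were divided at its locus. Gm49339 spans both Lilrb4a and its near copy Lilr4b on the same strand, so reads may be split among the 3 models. Gm49339 had no count in any young or control library, 0 to 15 counts in old libraries and 183, 82 and 93 in SOD1-G93A a to c. Lilr4b had 0 to 7 counts in young, 10 to 41 in old, 5, 3 and 0 in control and 287, 112 and 198 in SOD1-G93A libraries.

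Lilrb4a held 69.8%, 72.5% and 75.4% of the counts of the 3 models in SOD1-G93A a to c. In old libraries it held 60.3% to 85.2% in 7 and 32.4% in old f, where Gm49339 held 38.2% of 34 counts. Summed over the 3 models the level was 0.432 ± 0.343 CPM in young, 17.6 ± 6.11 in old, 1.06 ± 0.414 in control and 102.9 ± 30.5 in SOD1-G93A cords. The sums, which do not depend on how reads were divided among these models, did not overlap between the groups in either experiment.

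**Figure D5:**
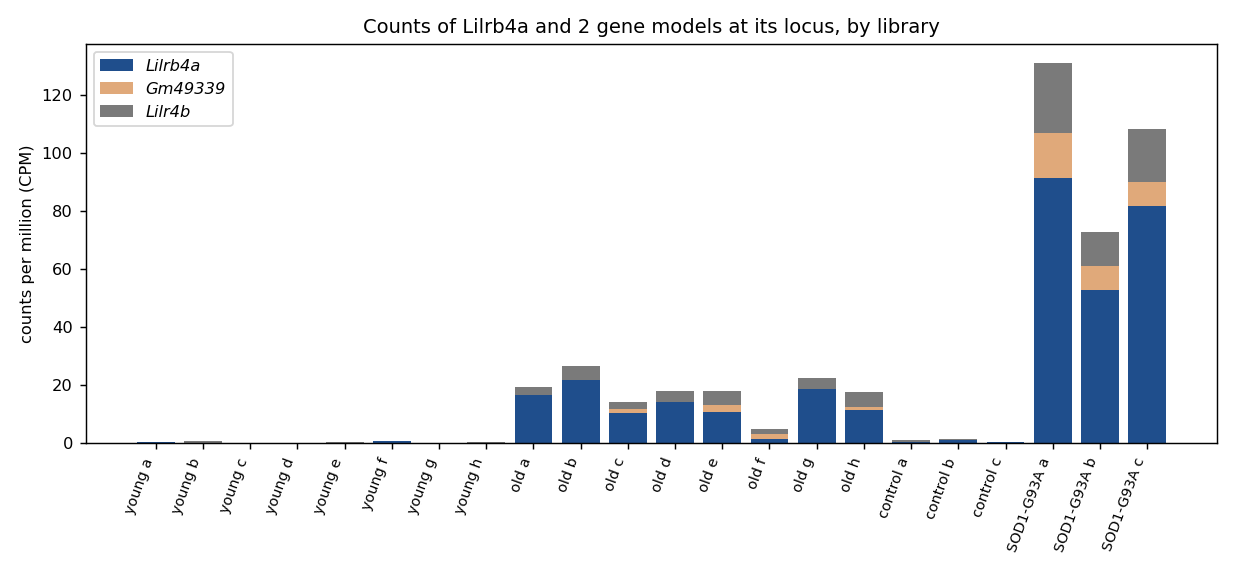
Counts of Lilrb4a (blue), Gm49339 (orange) and Lilr4b (grey), scaled to total counts as CPM and stacked from 0 for each of the 22 libraries. Lilrb4a makes up most of each bar in old and SOD1-G93A libraries other than old f, and the bars of young and control libraries are near 0.

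The other genes of these families were counted next, from lists chosen with earlier results in view. Several of them passed the filter on low counts through the old or SOD1-G93A libraries, so the numbers that rose are no support by themselves. For these lists and those below, the share called higher among all genes tested was 2.18% in aging and 8.5% in ALS. Of 6 further Siglec genes, 3 were tested in aging and 1 rose, and 4 were tested in ALS and 2 rose. Cd22, an ITIM Siglec best known from B cells, rose by 4.31 ± 0.31 in aging (adjusted p = 4.63e-10, edgeR) and by 6.66 ± 0.56 in SOD1-G93A cords (adjusted p = 0.000169, edgeR) on the log2 scale. The 6 B and plasma cell markers summed to 0.776 to 3.16 CPM in young, 1.29 to 3.08 in old, 1.77 to 3.62 in control and 1.10 to 4.13 in SOD1-G93A cords, and these ranges overlapped. Siglech, a DAP12-coupled Siglec of microglia, differed by 0.16 and 0.43, and Mag, the Siglec of myelin, by 0.01 and 0.06, and none of these passed.

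Of 9 further Cd300 genes, 1 was tested and rose in aging (Cd300c2, log2 fold change 1.79) and 3 were tested and rose in ALS (Cd300c2, Cd300ld and Cd300ld3, 3.20, 4.79 and 6.92). Cd300ld and Cd300ld3 had at most 2 and 1 counts in a control library. They passed the filter through the SOD1-G93A libraries, and with controls under the floor of 3 counts their folds are not measured. All 3 genes lie between Cd300lb and Cd300lf on chromosome 11. In the same stretch Cd300c, Cd300ld2, Cd300ld4 and Cd300ld5 had a mean of 0.409 CPM or less in each group.

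Of the LILR, PIR and LAIR genes, 7 of 14 had a row. In aging 2 of 3 tested rose, namely Lilr4b (3.92) and Pirb (2.87, the mouse inhibitory paired receptor), and in ALS 4 of 4 rose, namely Lair1 (1.69), Lilr4b (6.23), Pirb (2.54) and Gm49339, which was at least 37.6-fold higher. No other gene of the CD200 receptor and SIRP families had enough counts to be tested. Among 12 other inhibitory receptors of myeloid cells, 2 of 4 tested rose in aging and 7 of 9 in ALS. Fcgr2b, the inhibitory IgG receptor (2.73 and 4.75), had the smallest adjusted p of the list in both, and the list also held Havcr2, which encodes TIM-3 (1.10 and 2.73).

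The ligands moved unevenly. Of 5 tested, Apoe rose in aging (1.05 ± 0.07, adjusted p = 1.49e-10, edgeR), while Fn1 (0.72, adjusted p = 1.2e-06) and Clu (0.52, adjusted p = 2.32e-08) passed adjusted p there under the fold threshold. In ALS, Apoe (2.80), Clu (1.76) and Fn1 (1.5) rose. Cd200, made by neurons, differed by -0.01 in aging and -0.34 in ALS (adjusted p = 0.939 and 0.0647, edgeR). Cd47 differed by -0.08 in aging (adjusted p = 0.371, edgeR) and fell by 0.41 in ALS (adjusted p = 0.0208, edgeR), under the fold threshold. Summed neuronal markers were 1771 to 2896 CPM in SOD1-G93A and 3801 to 3904 CPM in control cords, and their part in the Cd47 and Cd200 values was not tested.

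Of 17 tested genes that make, move or remove sialic acid, the Siglec ligand, 0 were called in either experiment by edgeR and 0 by DESeq2, while 5 in aging and 8 in ALS had an unadjusted p under 0.05. Under the fold threshold, 2 passed adjusted p in aging (1 higher, 1 lower) and 7 in ALS (2 higher, 5 lower). Among all genes tested, 13.5% passed adjusted p as higher and 12.9% as lower in aging. In ALS these shares were 18.4% and 15.5%. The largest difference in ALS was that of St8sia1, which makes disialo-gangliosides (-0.93, and -0.15 in aging). The median log2 difference of the list was -0.03 in aging and -0.10 in ALS, beside -0.00273 and 0.00306 over all genes tested.

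Downstream, 3 of 8 ITIM effectors rose in aging and 3 of 9 in ALS. These were Ptpn6 (SHP-1, 1.88 and 3.01), Inpp5d (SHIP-1, 1.03 and 2.15) and Dok1 (1.46 and 2.46), all largely restricted to blood cells. Ptpn11 (SHP-2), which most cell types make, differed by -0.09 and 0.23 and did not pass. On the activating side, 8 of 10 adaptors and kinases of ITAM receptors rose in aging and 11 of 11 in ALS. Among all genes tested, 2.18% were called higher in aging and 8.5% in ALS. Genes with few counts could pass the filter through the old or SOD1-G93A libraries. Tyrobp, the partner of the Cd300lb and Cd200r4 products, rose from 10.05 to 48.2 CPM in aging (2.27 ± 0.17, adjusted p = 9.18e-10, edgeR) and from 9.70 to 141 CPM in ALS (3.87 ± 0.32, adjusted p = 0.00016, edgeR). Fcer1g, a related adaptor, rose by 1.76 and 3.45.

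Of the 6 myeloid reference genes, 5 rose in aging (median log2 difference 1.43) and 6 in ALS (2.73). The median over the members tested was 1.60 in aging, over 4 members, and 3.37 in ALS, over 10. In aging, Lilrb4a and Cd300a passed the filter through old cords. In ALS, all members but Cd33 and Sirpa passed it only with the SOD1-G93A libraries, and Cd300lb and Cd200r4 had no control count. The size of the member medians beside those of the reference is therefore no support. The reference genes share their cells of origin with the members, and how far cell number accounts for either median was not tested.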

How the data were processed

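Spinal cord RNA-seq of 22 mice was used. The authors aligned reads with STAR to mm10, summarized them with RSEM on Ensembl 88 annotation and deposited a table of RSEM expected counts and a table of log2 values, log2 of FPKM plus 1. Whether counting used strand is not given in the sources used here. Columns name the group but no replicate number, so libraries are replicates of a group. The p-values measure the spread between these cords.

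The expected counts, held as whole numbers, were tested with edgeR 4.0.16 in R 4.3.3 (TMM, filterByExpr with a minimum count of 10 and total of 15, quasi-likelihood test, Benjamini-Hochberg adjustment over all genes). Thresholds were those of the study. FPKM was taken back from the log2 table for comparisons between genes. Exact permutation tests used single values. DESeq2 1.42.0, limma 3.58.1, other filters, scalings and left-out libraries were alternatives. The planned edgeR fit scaled to myeloid reference genes called 97.4% of genes lower in aging. The reference itself was higher in old cords, so a gene that did not change comes out lower by construction. Ratios per mouse are reported instead, a choice made after seeing the data. On simulated counts, the edgeR step was tested with known changes. Lower bounds use a floor of 3 counts per library, which covers counting error only.

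Named genes were the 10 members, gene models overlapping them, and from each list at most 5 called genes of smallest adjusted p; uncalled genes named as ligands, effectors or relatives were chosen after their values were seen. Members and lists were chosen with earlier results of these data known. Of 107 list genes, 98 had a row. Gene positions are from GENCODE M21 and promoter windows from RefSeq. Pairs of libraries within a group differed by a chi-square per degree of freedom of at least 2.52, so none was a duplicate.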

Additional observations from a re-analysis of the deposited data

Results flagged for a closer look

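Cd33 in old cords held one low library, old b, at 13.5 CPM, whereas the other 7 lay close together. The gap to the next library was 0.644 of the range of the group, above the critical value of 0.526 for 8 values. Among 22 sets of group values examined this was 1, and chance alone gives about 1 in 20. The myeloid reference of old b was 24.5 CPM, within the range of the other old libraries.

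The change in SOD1-G93A cords was larger than that in old cords, by the interaction test, for Cd300lf (2.10 on the log2 scale), Cd33 (0.78) and Sirpa (0.60). The 6 myeloid reference genes also had larger changes in SOD1-G93A cords, with differences from 1.07 (Csf1r) to 1.5 (Irf8). Kit and experiment coincide, so they cannot be told apart.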

How the results depend on the processing

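The number of members called in aging, 3, was 8 without a filter on low counts, 1 with at least 10 counts in every library, 1 with limma on log2(FPKM + 1) and 8 in one fit of all 22 libraries, and ranged from 3 to 5 with a library left out (5 without young d, young g or old f). In ALS, 9 became 2 with at least 10 counts in every library and was 8 to 9 with a library left out. Called list genes numbered 18 in aging, 29 without the filter, 10 with at least 10 counts in every library and 9 with limma on log2(FPKM + 1), and 33 in ALS, 19 with at least 10 counts in every library. In aging, 10 members were tested without a filter, 2 with 10 counts in every library and 5 with limma; the cause of the other shifts was not tested. In the fit scaled to myeloid genes, members called higher numbered 2 in aging, 1 when Csf1r was left out of the reference and 1 to 3 with a library left out, beside 0.689% of all genes. In ALS that fit called 4, beside 0.987% of all genes. Against homeostatic genes 7 were called, but the share of all genes called there was not counted, so this number is no support. With those homeostatic genes Cd33 reversed, to 0.44 in aging and 0.39 in ALS. The Cd200r1 interaction, 0.59, ran from -0.0197 without control c, which had no count of it, to 1.16 without control b. For the counts of called genes, 110 alternatives lay within 1.5 times the main count and 16 did not.

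No paired analysis was possible because the columns carry no replicate numbers. Depth limits Siglece, Cd200r1 and Cd200r4 in young and control cords, where single counts decide the level. Group size limits the ALS comparison, and the sex of each library was not used.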
